A study of Mus musculus with 4 samples.

Results

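RNA that came down with a rabbit IgG control antibody, which is not directed against any erythroblast protein, was compared with the total input RNA that was set aside without any antibody. The comparison rests on 2 of the 4 arrays of the series, 1 IgG array and 1 input array, chosen by their antibody labels, and it covers 13911 of 23185 named genes after a filter on low values. All 4 arrays held RNA of mouse E14.5 fetal liver cells that had been taken with magnetic beads against Ter119, a surface marker of red cell precursors. The other 2 arrays held biological replicates of an immunoprecipitate made with an antibody to Cpeb4, an RNA-binding protein that regulates translation. They are used here to set the filter and to show how each gene stood in a specific precipitate. The labels give 1 protocol (a Magna RIP kit, biotinylated cRNA, Affymetrix arrays) for all of them, no genotype, strain or number of pooled livers, and do not say whether the IgG and input samples came from the same lysate.

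In RNA immunoprecipitation, a nonspecific IgG measures what RNA sticks to beads, tubes and antibody without the target, and the input shows what the lysate held. Small nucleolar RNAs (snoRNAs) sit in stable protein particles of the nucleolus and guide the modification of ribosomal RNA: C/D box members guide 2′-O-methylation and H/ACA box members guide the conversion of uridine to pseudouridine. Most of them are cut from introns of host genes, so a snoRNA and the spliced RNA of its host can be followed apart. Erythroblasts at this stage divide while they fill with hemoglobin, so that globin, heme, DNA replication and mitotic messages are prominent in their RNA.

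Small nucleolar and related small RNA genes were mostly higher in the IgG precipitate than in the input, while messages of the respiratory chain, the proteasome, DNA replication and mitosis were mostly lower and globin and heme messages lay nearer to the input. Values are log2 expression levels as deposited, a difference is IgG minus input on that scale, and a difference of 1 is a 2-fold difference. With 1 array a group there is no replicate check and no test, and genes are described by the size of the difference alone. In the IgG precipitate 1103 genes (7.93%) were at least 2-fold higher than in the input and 3329 genes (23.9%) were at least 2-fold lower, with a median difference of -0.15. Of the 2-fold differences, 24.9% were therefore towards IgG. That split depends on the scaling: it was 44.2% after the arrays were quantile normalised once more, 44.8% after the trend with level was subtracted and 9.61% after each array's median was subtracted, which moves the median of all genes to -0.51. The only replicate spread in the series is that of the 2 Cpeb4 precipitates. Their difference had an SD of 0.216 over the same genes, where IgG minus input had an SD of 1.03, and 52 genes lay at least 2-fold apart between them. Ties narrow that spread, since 3032 of the 13911 genes had equal values on both Cpeb4 arrays and 540 were equal on IgG and input, within a tolerance of 1e-09. Whether a repeat of the IgG or input array would vary as little was not tested.

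**Figure D1:**
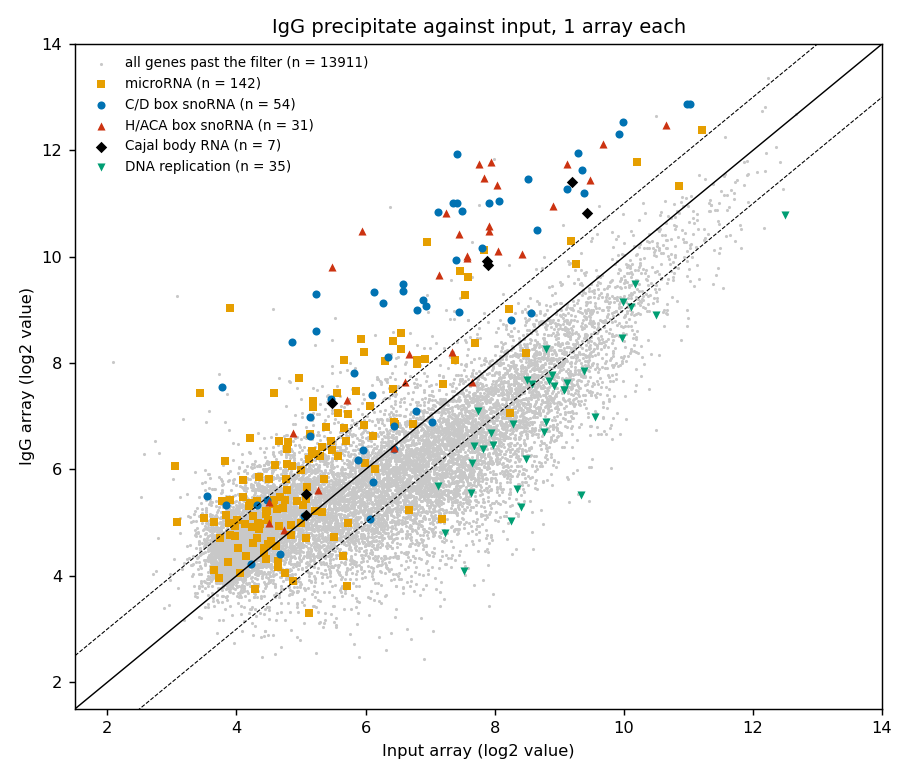
Level of each gene past the filter on the input array (x axis, log2) against the IgG array (y axis, log2), with the line of equality solid and 2-fold lines dashed. Small RNA classes are coloured and lie mostly above the upper dashed line, where 40 of 54 C/D box and 24 of 31 H/ACA box snoRNA genes fall; all 35 genes of the DNA replication list lie below equality.

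The 5 small RNA classes (C/D box, H/ACA box and Cajal body RNAs, microRNA genes, and other small noncoding RNAs such as Rpph1 and 7SK) held 242 genes past the filter. Of these, 137 (56.6%) were at least 2-fold higher in the IgG precipitate and 7 (2.89%) at least 2-fold lower, with a median difference of 1.14. Among the 13669 remaining genes, 966 (7.07%) were 2-fold higher, 3322 (24.3%) were 2-fold lower, and the median was -0.17. The filter includes the IgG array, so genes high there pass more easily, and 142 of the 242 were microRNA genes. Without the filter, 92 of 538 microRNA, 41 of 65 C/D box and 25 of 34 H/ACA box genes were 2-fold higher. Of all 23185 named genes 1852 were. At 8-fold, 23 small RNA genes and 17 other genes were higher, while 0 small RNA genes and 93 others were lower. Probe values are not amounts of RNA, so ranks within an array are compared here only between arrays. Of the 25 highest genes of the IgG array 11 were snoRNA genes, against 0 of the 25 highest on the input array and 0 on either Cpeb4 array. Of the 100 highest genes 26 were snoRNA genes, against 2 on the input and 1 on each Cpeb4 array.

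Among C/D box snoRNA genes, Snord69 stood at 7.42 on the input array, 11.94 on the IgG array, and 8.07 and 8.07 on the Cpeb4 arrays, so that IgG alone was high (22.8-fold over input). Snord52 had 5.23 on input, 9.31 on IgG, and 6.31 and 6.23 on the Cpeb4 arrays, a difference of 4.08. Snord118 encodes U8, which takes part in the processing of the large subunit ribosomal RNA rather than its methylation. Its values were 3.78 on input, 7.56 on IgG, and 5.22 and 4.78 on the Cpeb4 arrays, so it was again highest with IgG. Snord57 (10.97 on input and 12.88 on IgG) and Snord100 (11.03 and 12.87), both already high on the input array, were among the 10 highest genes of the IgG array. Of 65 C/D box genes on the array 54 passed the filter, 40 of these were at least 2-fold higher and 1 at least 2-fold lower, with a median of 1.97. The exception was Snord14a, with 6.06 on input, 5.06 on IgG, and 3.92 and 3.58 on the Cpeb4 arrays. Snord4a (-0.36) and Snord85 (-0.26) were next lowest. The filter includes the IgG array, so genes high there pass more easily. Among the 52 whose input value alone reached the filter's level, 37 were at least 2-fold higher. Over all 65, 41 were 2-fold higher and 2 were 2-fold lower, with a median of 1.84.

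H/ACA box genes behaved in the same direction. Snora33 had 5.94 on input, 10.49 on IgG, and 6.39 and 6.52 on the Cpeb4 arrays, a 23.4-fold difference between IgG and input. Snora81 had 5.48 on input, 9.80 on IgG, and 4.23 and 4.57 on the Cpeb4 arrays, which places it low in the specific precipitates and high in the nonspecific one. Snora15 stood at 7.76 on input and 11.75 on IgG. Of 34 genes 31 passed the filter, 24 were at least 2-fold higher, 0 were 2-fold lower, and the median was 2.06. Over all 34, 25 were 2-fold higher and 1, Snora20 (-1.61), was 2-fold lower, with a median of 2.01. The 3 lowest past the filter, Snora31 (-0.05), Snora73a (-0.01) and Snora2b (0.12), were at about the same level on both arrays. Snora73a (U17, which acts in cleavage of the ribosomal RNA precursor) had 7.64 on input and 7.64 on IgG, but 4.32 and 4.65 on the Cpeb4 arrays. Cajal body RNAs, which guide modification of spliceosomal RNAs, were 2-fold higher in 5 of 7 cases past the filter, with a median of 1.77. Over all 8 genes the median was 1.57. Scarna10, which the filter removed, was 2-fold lower, with 4.75 on input and 2.84 on IgG. Scarna6 led the class with 9.20 on input, 11.40 on IgG, and 7.47 and 7.17 on the Cpeb4 arrays, and Scarna8 was nearly level at 0.07.

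Across the C/D box list the median level was 6.68 on input, 8.98 on IgG, and 5.68 and 5.57 on the Cpeb4 arrays. Across the H/ACA box list it was 7.57, 10.05, 6.39 and 6.52 in the same order. By these medians the IgG array alone was high, and the Cpeb4 arrays lay below the input. In every scaling run, the medians stayed above 1: they ranged from 1.62 to 2.71 for C/D box and from 1.70 to 2.84 for H/ACA box genes.

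**Figure D2:**
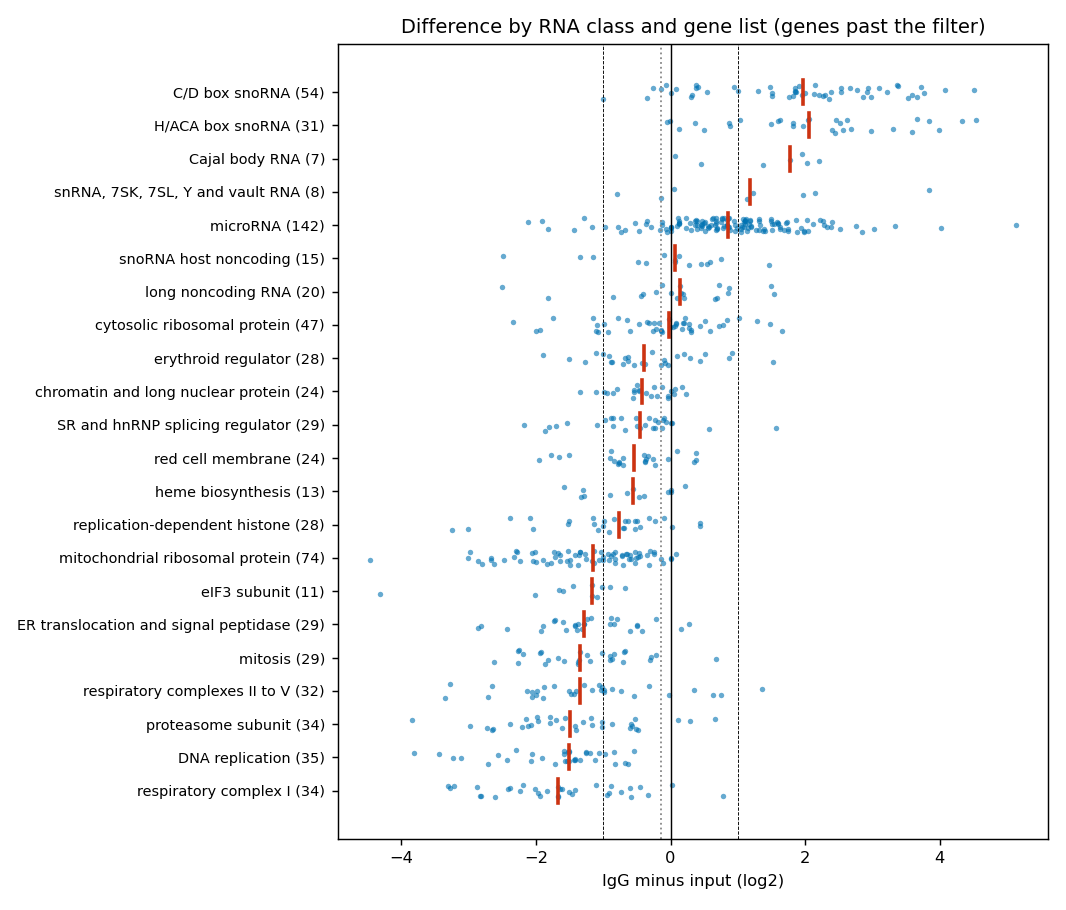
Difference of IgG minus input (x axis, log2) for genes past the filter in 22 RNA classes and gene lists, with their number in brackets. Points are genes, red bars list medians, dashed lines 2-fold differences and the dotted line the median of all genes (-0.15); the medians run from 2.06 for H/ACA box snoRNAs to -1.67 for respiratory complex I, and those of cytosolic ribosomal proteins, erythroid regulators, chromatin proteins and splicing regulators turn positive under quantile or level scaling, while those of noncoding snoRNA hosts and long noncoding RNAs turn negative once array medians are subtracted.

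Messages for the proteins that bind or mature these RNAs did not share their difference. Dkc1, the pseudouridine synthase of H/ACA particles, had 9.19 on input and 8.39 on both Cpeb4 arrays and was lowest with IgG, at a difference of -2.18 from input. Gar1, of the same particles, had 6.43 on input, 6.65 on IgG, and 6.78 and 7.07 on the Cpeb4 arrays. Nop56, of C/D box particles, was level on input and IgG at 9.65, and the nucleolar chaperone Npm1 was nearly so at 7.20 and 7.17. Of 30 ribosome assembly genes 0 were at least 2-fold higher and 9 (30.0%) at least 2-fold lower, near the 23.9% of all genes. Their median was -0.81 as deposited and -0.24 under quantile scaling, where 3 were 2-fold lower.

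Other structured noncoding RNAs were mixed. Rpph1, the RNA subunit of the tRNA-processing enzyme RNase P, had 7.99 on input, 11.83 on IgG, and 9.64 and 9.64 on the Cpeb4 arrays, a 14.4-fold difference. Rprl2, an RNase P RNA-like gene, had 7.76 on input and 10.96 on IgG, but is outside the list of this class and counts among the other genes. Rmrp, the related RNA of RNase MRP that cuts precursor ribosomal RNA, was 2.15 higher (10.50 on input and 12.65 on IgG). Rn7sk, which holds the transcription elongation factor P-TEFb in an inactive particle, had 12.23 on input, 13.36 on IgG, and 12.88 and 13.00 on the Cpeb4 arrays, and was lowest on input. Rnu11, of the minor spliceosome, was 1.97 higher. Terc, the template RNA of telomerase and itself an H/ACA RNA, went the other way, with 11.46 on input, 10.66 on IgG, and 7.49 and 7.88 on the Cpeb4 arrays. Rny1 (-0.15) and Vaultrc5 (0.04) lay near 0. Of the 8 listed genes past the filter, 5 were at least 2-fold higher and 0 at least 2-fold lower.

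Host genes allow the small RNA to be read against a longer transcript of the same locus. Gene spans of the RefSeq annotation placed 82 of 107 C/D box, H/ACA box and Cajal body RNA genes inside exactly 1 other measured gene, without regard to strand. In 64 pairs, with 48 different hosts, both genes passed the filter. The small RNA had the higher difference in 59 of 64 pairs, and the medians were 2.04 for the small RNAs and -0.45 for the hosts. The filter includes the IgG array, so pairs whose small RNA was low there dropped out more easily. Among dropped pairs, Scarna10 (-1.91, host -0.42), Snora20 (-1.61, host -1.28) and Snord61 (-1.44, host -1.22) lay below their hosts. Others, such as Snord92 (0.81, host -1.41), lay above. While 49 of the 64 small RNA genes were at least 2-fold higher in the IgG precipitate, 3 of 48 hosts were 2-fold higher and 9 were 2-fold lower. Some probes of a host could still read the same sequence as the small RNA, and the probe positions were not used here.

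Snord69 lies in Gnl3, a nucleolar GTPase gene, which had 7.75 on input and 7.53 on IgG, so that host and snoRNA parted by 4.73 log2 units. Snora15 (3.99) lies in Cct6a, a subunit of the cytosolic chaperonin, which was lower with IgG (9.99 on input and 8.09 on IgG). Snora3 (2.44) lies in Rpl27a, a ribosomal protein gene with 8.41 on input, 6.06 on IgG, and 9.59 and 9.59 on the Cpeb4 arrays. In each of these pairs the snoRNA was high on the IgG array and its host was not. Nucleolin (Ncl), which binds precursor ribosomal RNA (-0.87), was below input while Snora75 (3.30) and Snord82 (2.54) within it were higher. Nop56, level on both arrays, holds Snord57 (1.91) and Snord110 (3.38). The 4 genes within the noncoding host Snhg12 differed among themselves: Snora44 (3.66), Snord99 (3.10) and Snora16a (2.98) were high and Snora61 (0.89) was less so, with the host at 0.06. In all, 12 hosts held more than 1 small RNA gene, and small RNAs of 1 host are not independent.

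Among pairs past the filter, the 5 in which the small RNA did not exceed its host involved 3 ribosomal protein genes, Rpl23a, Rps13 and Rps3a1. Snord42a (0.37), Snord42b (-0.14) and Snord4a (-0.36) lie in Rpl23a (0.52). Snord14a (6.06 on input and 5.06 on IgG) lies in Rps13 (1.02), and Snord73a (1.01) in Rps3a1 (1.76). These small RNAs had IgG levels between 5.06 and 6.89. Noncoding snoRNA hosts as a list lay near the median of all genes, with 1 of 15 at least 2-fold higher, 3 at least 2-fold lower and a median of 0.07 that becomes -0.29 once array medians are subtracted. Snhg9 was the highest (5.96 on input and 7.42 on IgG) and Snhg6 the lowest (6.62 and 4.12).

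**Figure D3:**
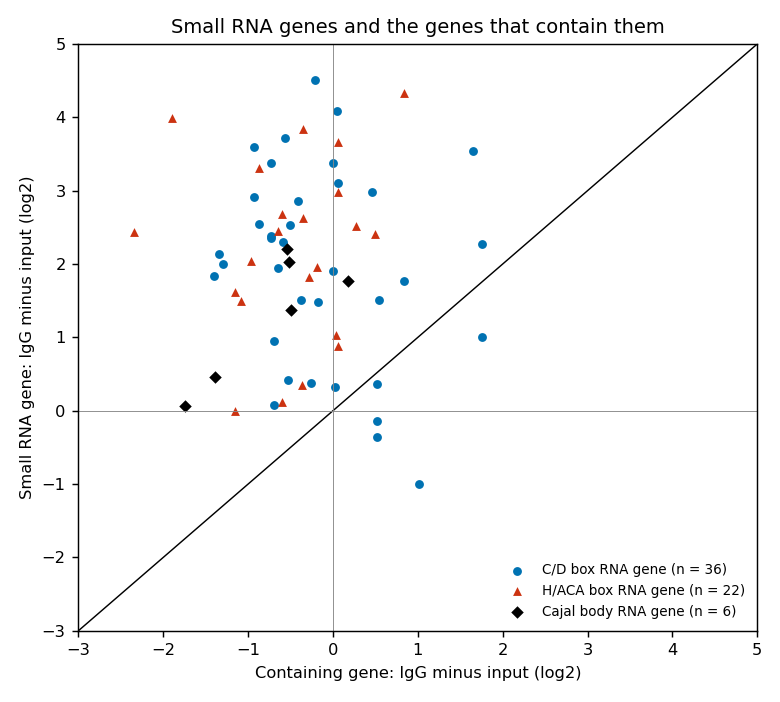
Difference of IgG minus input (log2) of 64 small RNA genes (y axis) against the difference of the measured gene that contains each (x axis), with the line of equality. In 59 of 64 pairs the point lies above the line; the 5 below or right of it belong to Rpl23a, Rps13 and Rps3a1.

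MicroRNA genes lay on both sides of the input, mostly above it, and erythroid ones were among the lowest. An expression array of this kind reads precursor or host transcripts and cannot tell them from the mature microRNA, so the values below belong to the gene and not to the mature strand. Mature sequences from RefSeq (GRCm38.p6) are shown for genes at both ends of the class, to let a reader compare their seeds; capitals mark the seed, bases 2 to 8. The first 2 belong to genes that were high with IgG, the rest to genes that were low.
mmu-miR-680: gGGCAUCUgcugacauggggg
mmu-miR-761: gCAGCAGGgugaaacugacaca
mmu-miR-144-5p: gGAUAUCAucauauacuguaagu
mmu-miR-144-3p: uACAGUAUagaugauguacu
mmu-miR-451a: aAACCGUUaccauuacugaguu
mmu-miR-1931: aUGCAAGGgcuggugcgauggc
mmu-miR-1898: aGGUCAAGguucacaggggauc

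The 7 sequences have 7 different seeds; Mir328, also high with IgG, is named only. Mir680-1 had 3.90 on input, 9.03 on IgG, and 6.38 and 5.59 on the Cpeb4 arrays, a 35.2-fold difference. Mir328 had 3.43 on input, 7.44 on IgG, and 4.18 and 4.84 on the Cpeb4 arrays, and Mir761 had 6.95, 10.28, 7.43 and 7.54 in that order. All 3 were highest on the IgG array. Mir144, whose microRNA is transcribed with that of Mir451a from 1 erythroid cluster under GATA1, was the lowest, with 7.18 on input, 5.06 on IgG, and 4.57 and 4.63 on the Cpeb4 arrays. Mir451a, named here after its value was seen, had 8.24 on input, 7.06 on IgG, and 6.29 and 6.19 on the Cpeb4 arrays. Both cluster members were thus highest on the input array. Mir1931 (-1.91) and Mir1898 (-1.82) were the other low ones. Of 538 microRNA genes 142 passed the filter, with 63 at least 2-fold higher, 6 at least 2-fold lower and a median of 0.85. The filter includes the IgG array, so microRNA genes high there passed more easily. Among the 140 whose input value alone reached the filter's level, 56 were 2-fold higher. Over all 538 genes 92 were 2-fold higher and 15 were 2-fold lower, with a median of 0.33. That is near the 0.30 of all named genes below the filter.

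Long noncoding RNAs showed no common direction. Neat1, the scaffold of nuclear paraspeckles, was 1.54 higher (9.06 on input and 10.60 on IgG), and Pvt1, a neighbour of Myc, had 5.67 on input and 7.17 on IgG. Malat1, an abundant RNA of nuclear speckles named here outside the naming rules, had 11.56 on input, 12.24 on IgG, and 12.13 and 12.03 on the Cpeb4 arrays. Lockd (8.58 on input and 6.08 on IgG), which is transcribed downstream of Cdkn1b, and Tug1 (-1.82) were lower. Of 20 listed genes past the filter 2 were 2-fold higher and 2 were 2-fold lower, beside 7.93% and 23.9% of all genes. Their median of 0.15 becomes -0.21 once array medians are subtracted.

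The single genes with the largest differences were partly of other kinds. Cma2, a mast cell protease gene, had 3.07 on input, 9.27 on IgG, and 2.91 and 5.02 on the Cpeb4 arrays (73.5-fold over input). The 2 Cpeb4 replicates parted by more than 2 log2 units there, so the gene was not steady between repeats. Sft2d1, of vesicle transport, had 6.38 on input, 10.93 on IgG, and 6.49 and 5.83 on the Cpeb4 arrays, and stood out with IgG only. Gpnmb, a membrane glycoprotein of macrophages, had 3.52 on input, 6.90 on IgG, and 8.55 and 8.60 on the Cpeb4 arrays, so it was high in all precipitates. Gm15128 (5.93), Gm10220 (4.45), Ighv2-3 (4.07), Btbd35f6 (2.74 on input and 6.54 on IgG), Vmn1r103 (3.77), Olfr59 (3.73), Trim43c (3.56) and Usp17lc (3.51) belong to predicted genes or to large families of similar sequence. Probes for such genes can share sequence with relatives, and their values are uncertain. Because the filter includes the IgG array, genes high there pass more easily. Cma2 (3.07 on input), Gm15128 (2.09) and Olfr59 (2.57) passed only through their IgG values, so their large folds rest on low input values. Of the 40 genes at least 8-fold higher, 18 were C/D or H/ACA box snoRNA genes, 4 microRNA genes, and 12 had the protein-coding biotype.

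At the other end no small RNA gene was found among the 93 genes at least 8-fold lower, and 85 of the 93 were protein-coding. Mrpl32, of the mitochondrial ribosome, had 6.90 on input, 2.43 on IgG, and 5.93 and 6.60 on the Cpeb4 arrays. Eif3m, of the translation initiation factor eIF3, had 7.97 on input, 3.66 on IgG, and 6.60 and 6.65 on the Cpeb4 arrays. Mrpl32 was low on the IgG array alone, and so was Cetn2, a centrosomal calcium-binding protein (7.04 on input and 2.96 on IgG). The autophagy protease Atg4a had 8.59 on input, 4.50 on IgG, and 7.43 and 7.44 on the Cpeb4 arrays. Eif3m and Atg4a were lowest with IgG but also more than 2-fold below input on both Cpeb4 arrays. Rab1b, a GTPase of transport from the endoplasmic reticulum, had 9.46 on input, 5.42 on IgG, and 7.14 and 7.28 on the Cpeb4 arrays. The 15 lowest further included the kinetochore gene Cenpq (-3.87), Anapc13 (-3.83) of the anaphase-promoting complex, and Pet100 (-3.90) and Uqcc2 (-3.77), which assist the assembly of respiratory complexes. The others were Gm13552 (-4.48), Gm6581 (-3.90), the proteasome subunit Psma4 (-3.85), the clamp loader subunit Rfc4 (-3.81), Cript (-3.78) and Ankrd49 (-3.77).

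**Figure D4:**
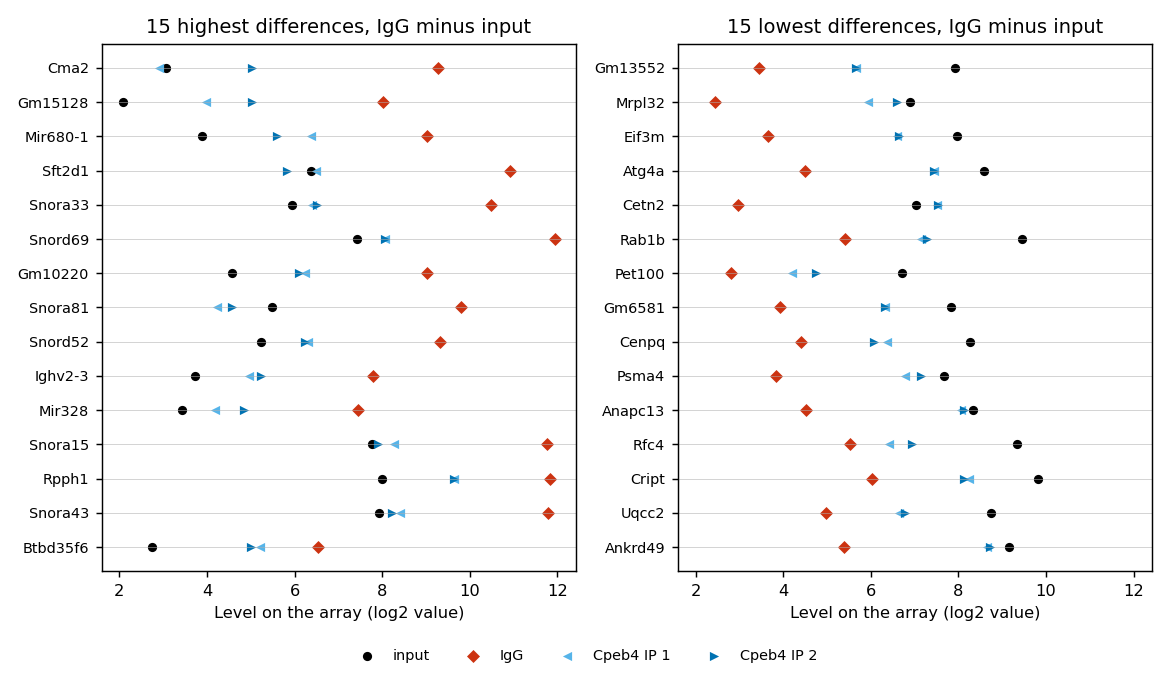
Level (x axis, log2) on each of the 4 arrays of the 15 genes with the highest (left) and the 15 with the lowest (right) difference of IgG minus input. The IgG value stands apart from the other 3 arrays in most rows, from 9.27 for Cma2 on the left to 2.43 for Mrpl32 on the right.

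Messages of the mitochondrial respiratory chain were lower in the precipitate. Ndufb6 of complex I had 9.13 on input, 5.82 on IgG, and 7.58 and 7.56 on the Cpeb4 arrays, and Uqcrc2 of complex III had 9.93, 6.66, 9.04 and 9.19. Of 34 complex I genes 24 were at least 2-fold lower and 0 were 2-fold higher, with a median of -1.67 and a range from -3.31 (Ndufb6) to 0.78 (Ndufa11). In complexes II to V, 21 of 32 were 2-fold lower and 1, the muscle isoform Cox6a2, was 2-fold higher. Mitochondrial ribosomal proteins were 2-fold lower in 42 of 74 cases, with a median of -1.15. Under quantile scaling the medians were -1.10 for complex I, -0.71 for complexes II to V and -0.69 for mitochondrial ribosomal proteins, with 18, 14 and 30 members 2-fold lower. Of all 13911 genes, 23.9% were 2-fold lower as deposited and 1936 under that scaling.

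Messages of cell division were lower as well. All 35 genes of the DNA replication list were below input, 29 of them by at least 2-fold, with a median of -1.51. Rfc4, of the clamp loader, had 9.34 on input, 5.52 on IgG, and 6.41 and 6.94 on the Cpeb4 arrays, and the sliding clamp Pcna had 12.50, 10.79, 11.23 and 11.09. In both, all 3 precipitates were below input and IgG was the lowest. Gins1 (-3.44) of the replicative helicase and the flap nuclease Fen1 (-3.23) were also low, and the licensing factor Cdt1 (-0.54) was nearest to input. Of 29 mitosis genes 18 were 2-fold lower and 0 were 2-fold higher, with a median of -1.35. The checkpoint gene Mad2l1 had 10.02 on input, 7.39 on IgG, and 9.13 and 9.11 on the Cpeb4 arrays, and Incenp, of the chromosomal passenger complex, was the highest at 0.67. As deposited, 23.9% of all genes were 2-fold lower. Under quantile scaling 13 of 35 replication genes and 9 of 29 mitosis genes were 2-fold lower, against 1936 of all 13911 genes, with medians of -0.71 and -0.57.

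Proteasome subunits were 2-fold lower in 24 of 34 cases (median -1.50), led by Psma4 with 7.68 on input, 3.83 on IgG, and 6.77 and 7.15 on the Cpeb4 arrays. The interferon-inducible subunit Psmb8 was the highest at 0.67. All 11 eIF3 subunits were below input, 9 of them by at least 2-fold. In the list for translocation into the endoplasmic reticulum, 18 of 29 were 2-fold lower (median -1.29). Spcs3, a signal peptidase subunit, had 8.09 on input, 5.66 on IgG, and 9.81 and 9.84 on the Cpeb4 arrays, so it was low with IgG and high in both specific precipitates. Its partners Spcs1 (-1.29) and Spcs2 (-1.38) were also lower with IgG than in the input. Under quantile scaling 13 proteasome, 3 eIF3 and 8 translocation genes were 2-fold lower. Over all genes the 2-fold lower share was 23.9% as deposited and 1936 of 13911 under quantile scaling. Replication-dependent histone genes, whose messages end in a stem-loop in place of a poly(A) tail, were 2-fold lower in 10 of 28 cases and 2-fold higher in 0. H2ac4 had 9.82 on input, 6.58 on IgG, and 6.76 and 6.53 on the Cpeb4 arrays, while H2bc13 was level at 12.67 and 12.68. Histone genes are near copies of each other, so single values are uncertain.

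Cytosolic ribosomal proteins, chromatin proteins and splicing regulators lay closer to 0. Over all genes 7.93% were 2-fold higher and 23.9% 2-fold lower as deposited. Of 47 ribosomal protein genes 4 were 2-fold higher and 8 were 2-fold lower, with a median of -0.02 that becomes 0.10 under quantile scaling. Rps19 was higher (7.02 on input and 8.51 on IgG) and Rpl27a lower; processed copies of these genes are many, so single values are uncertain. The 24 genes for chromatin and long nuclear proteins had 0 members 2-fold higher and 2 lower, with a median of -0.42 (0.36 under quantile scaling). Chd1, a chromatin remodeller, was the lowest at -1.34 and Srrm2, a nuclear speckle scaffold, the highest at 0.23. Splicing regulators of the SR and hnRNP families had 6 of 29 members 2-fold lower and 1 higher, with a median of -0.46 (0.27 under quantile scaling). Hnrnph2 was the lowest (7.60 on input and 5.42 on IgG) and Srsf12 the highest (3.82 and 5.38).

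Erythroid messages lay nearer to the input than those of the respiratory chain, the proteasome and cell division, with some genes on either side. As deposited, the globin and heme medians still lay below the -0.15 of all genes. The adult beta globin gene Hbb-b1 had 11.38 on input, 11.37 on IgG, and 11.69 and 11.74 on the Cpeb4 arrays, and so was level. Hbb-bs had 8.46 on input, 6.72 on IgG, and 7.09 and 7.17 on the Cpeb4 arrays, and the embryonic Hbb-bh1 had 6.33 on input and 5.21 on IgG. The embryonic Hbb-y went the other way, with 5.19 on input, 6.67 on IgG, and 7.34 and 7.52 on the Cpeb4 arrays. Hbq1a (0.52) and Hbq1b (-0.64) differed by less than 2-fold, and Hba-x was below the filter. Globin genes share sequence, so a probe set may also read a neighbouring gene. The median of the 6 globin genes was -0.32 and becomes 0.05 under quantile scaling.

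Of 13 heme synthesis genes 4 were at least 2-fold lower (30.8%, against 23.9% of all genes) and 0 higher, with a median of -0.56. Under quantile scaling 2 were lower with a median of -0.29, and after the level trend was subtracted 0 were lower with a median of -0.10. The 4 genes lower as deposited were Clpx (-1.59), which activates the first enzyme of the pathway, Urod with 11.49 on input, 10.16 on IgG, and 9.84 and 10.05 on the Cpeb4 arrays, Uros (-1.30) and the glycine importer Slc25a38 (-1.29). Alas2, the erythroid rate-limiting enzyme (-0.03), Alas1 (0.00) and Fech, which inserts the iron (0.00), were level with input. Between them lay Alad (-0.90), Tmem14c (-0.64), Cpox (-0.56), Slc25a39 (-0.47), Abcb10 (-0.39) and Ppox (0.21). The red cell membrane list had 4 of 24 genes 2-fold lower and 0 higher, with the water channel Aqp1 the lowest (8.34 on input and 6.38 on IgG) and Kel, a blood group protein, among the highest (0.37). Its share lower was below the 23.9% of all genes, and under quantile scaling 2 genes were 2-fold lower and 1 higher.

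Erythroid regulators had 4 of 28 genes (14.3%) 2-fold lower, below the 23.9% of all genes, and 1 higher. Their median of -0.40 becomes 0.23 under quantile scaling. Klf1, the activator of adult globin, had 10.12 on input, 8.22 on IgG, and 8.40 and 8.41 on the Cpeb4 arrays, and Gata1 had 10.04, 8.77, 8.57 and 8.71. For both, the input array was high and the 3 precipitates lay close together. Myb, which keeps progenitors dividing, had 7.30 on input, 8.83 on IgG, and 8.41 and 8.33 on the Cpeb4 arrays, and the stem cell factor receptor Kit had 6.78, 7.69, 7.79 and 7.87. For these progenitor genes the input was the lowest array. Fth1, the ferritin heavy chain (12.19 on input and 12.81 on IgG), and Pabpc1, the cytoplasmic poly(A)-binding protein (12.14 and 12.74), were among the 10 highest genes of the IgG array.

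Summed levels of markers of other blood and liver cells were higher in the precipitates than in the input, although single markers went either way. Pf4, a platelet chemokine, had 6.14 on input, 8.53 on IgG, and 8.83 and 8.85 on the Cpeb4 arrays, and S100a9, a neutrophil protein, had 4.83, 7.64, 7.53 and 7.59. Alb, the hepatocyte albumin gene, had 4.24 on input, 6.11 on IgG, and 7.53 and 7.88 on the Cpeb4 arrays. In these genes all 3 precipitates lay above the input. Summed log2 levels over the measured members were 41.4 on input, 46.7 on IgG, and 52.4 and 53.1 on the Cpeb4 arrays for 6 megakaryocyte markers, with 3 of them 2-fold higher with IgG and Gp1bb (-0.56) and Gp9 (-0.27) below input. For 9 neutrophil markers they were 55.8, 61.3, 71.2 and 71.3, with 3 members 2-fold higher, Elane (-1.14) 2-fold lower, and Camp (-0.84) and Ctsg (-0.24) below input. For 8 hepatocyte markers they were 33.3, 38.9, 44.5 and 45.3, with 2 members 2-fold higher. For 9 macrophage markers they were 37.8, 42.5, 45.1 and 46.1, with 1 member 2-fold higher. The sums were 22.8, 25.4, 23.8 and 23.4 for 6 lymphocyte markers and 27.0, 29.2, 29.2 and 29.1 for 7 endothelial markers, with 0 members 2-fold higher or lower in both. The 6 measured erythroid markers had sums of 66.1, 63.0, 63.7 and 63.6 and stood between 9.48 and 12.2 on the input array, above its median over all probe sets of 4.13. Macrophage, hepatocyte, lymphocyte and endothelial markers were mostly low on input, and low genes of many kinds were raised on the IgG array. Their median differences with IgG were 0.66, 0.69, 0.56 and 0.17. Macrophage and hepatocyte members past the filter had median Cpeb4 levels of 4.88 and 5.29. All genes in the groups by Cpeb4 level that hold these values had medians of 0.14 and -0.11. With the level trend subtracted, medians past the filter were 0.41 for 7 macrophage and 0.41 for 7 hepatocyte markers. They were -0.01 for 3 lymphocyte and 0.01 for 5 endothelial markers, so these lay near 0 after that step. What lies behind the remaining macrophage and hepatocyte difference was not tested. The part of other cells in the differences was not tested, and in bulk RNA fewer cells of a type and less RNA per cell cannot be told apart. No value is 0 on this scale, so no marker could be called absent.

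Genes best known from other tissues, such as sensory receptors, also sat higher on the IgG array. Of 112 olfactory, vomeronasal and taste receptor genes past the filter, 47 were at least 2-fold higher and 1 lower, with a median of 0.90. Over all 1409 such genes 182 were 2-fold higher and 2 were 2-fold lower, with a median of 0.36 and median levels of 2.34 on input and 2.76 on IgG. Among the 87 whose input value alone reached the filter's level, 32 were 2-fold higher. Variable segments of antigen receptor genes, grouped by RefSeq biotype after values were seen, were 2-fold higher in 27 of 56 cases past the filter and in 61 of all 262. In both families low genes could pass the filter through the IgG array, so the counts over genes that passed are raised by it. The 9274 named genes below the filter had a median level of 2.88 on input and 3.26 on IgG, with 749 at least 2-fold higher and 50 at least 2-fold lower. The low end of the scale was thus raised on the IgG array for genes of many kinds.

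Genes at higher levels lay lower on the IgG array. Its values were drawn together, with an SD over all probe sets of 1.74 where the input had 2.13 and the Cpeb4 arrays 2.05 and 2.07. The genes past the filter were split into 10 equal groups by their mean on the Cpeb4 arrays, which share no value with the difference. The filter itself uses the IgG and input arrays, so genes low on the Cpeb4 arrays passed more easily when high on either. Values of the lowest group, from 2.91 to 4.01, are therefore not free of that selection. Genes below the filter had a median difference of 0.30. The median difference was 0.55 in the lowest group, -0.11 in the fifth and -1.03 in the ninth, with -0.84 in the highest. Genes at least 2-fold higher numbered 277 in the lowest group and 29 in the highest, and genes at least 2-fold lower numbered 18 and 569. The part of this trend in the list differences was measured by subtracting a lowess curve of difference on mean level. The C/D box median was then 2.71 and the H/ACA box median 2.84, both further from 0 than as deposited. Medians of lists lower with IgG came nearer to 0, at -0.94 for complex I, -0.65 for the proteasome, -0.64 for DNA replication and -0.50 for mitosis, and erythroid regulators went from -0.40 to 0.34. MicroRNA genes had a median of 0.99 after this step.

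**Figure D5:**
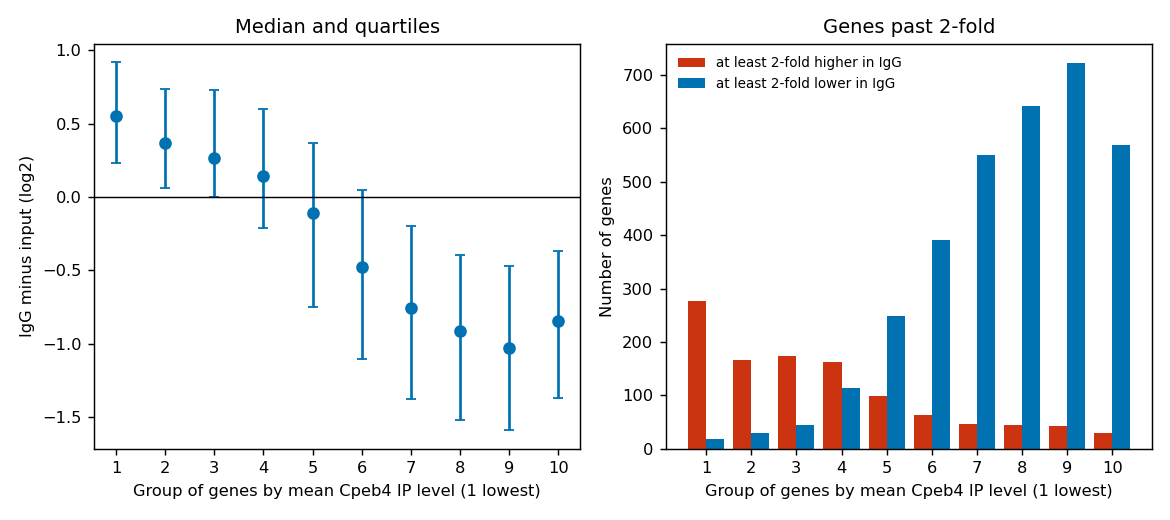
Genes past the filter in 10 groups of rising mean level on the 2 Cpeb4 arrays (x axis). The left panel shows the median and quartiles of IgG minus input (log2), from 0.55 in the lowest group to -1.03 in the ninth; the right panel shows the number of genes at least 2-fold higher and lower.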

How the data were processed

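RNA of 4 samples was measured on 1-colour Affymetrix arrays. Per the submitters' processing notes the values were made with RMA in the affy package; versions, probe definition and genome build are not given in the sources used here. The authors deposited log2 values for 25206 probe sets, named by Entrez gene number. The platform annotation named 23185 of them with 1 symbol, 0 with several and 2021 with none. Groups follow the antibody label. Genes with a mean over the 4 arrays of at least 3.844, the 40th percentile of named genes, were kept (13911). IgG minus input was taken gene by gene, and at least 2-fold was the only criterion, since 1 array a group allows no test and limits the precision.

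Genes named are the 15 highest and 15 lowest differences, the 15 highest outside noncoding, histone, predicted and clone-named genes, the 10 highest on either array, the 3 highest and 3 lowest of each list, small RNAs with hosts, and the globin, heme and signal peptidase genes in full. Mir451a and Malat1 were added outside these rules. The comparison and its lists were chosen with earlier results of these data known. The level trend was a lowess curve (fraction 0.2). Names and spans came from RefSeq GRCm38.p6. Other filters, scalings and folds were run. Python 3.11.15, pandas 2.3.3, numpy 2.4.6 and statsmodels 0.14.6 were used, and the steps were tested on simulated data.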

Additional observations from a re-analysis of the deposited data

How the results depend on the processing

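No paired analysis was possible because IgG and input have 1 array each, which leaves no repeated pair. In every setting run, more genes were called lower than higher and the snoRNA medians stayed positive. The median difference over all genes (-0.15) did not keep its sign. It was 0.11 without a filter and 0.003 after subtracting the level trend. The count of genes at least 2-fold higher (1103) was 1852 without a filter, 505 with the filter at the 60th percentile, 508 after subtracting array medians, 2623 at 1.5-fold and 143 at 4-fold. The count lower (3329) was 1936 after quantile normalisation again, 1600 after subtracting the level trend, 5039 at 1.5-fold and 748 at 4-fold. C/D box genes past 4-fold numbered 26. The C/D box median (1.97) was 2.29 at the 60th percentile, 2.47 with quantile, 1.62 with median and 2.71 with trend scaling; the H/ACA box median (2.06) was 2.42, 2.56, 1.70 and 2.84. Leaving out either Cpeb4 replicate, which enters the filter only, gave 1129 to 1131 higher and 3325 to 3328 lower genes, with 40 and 24 snoRNA genes and medians of 1.97 and 2.06. Filters on input alone (920 higher, 3369 lower) or on the Cpeb4 arrays alone (983 and 3326) were chosen after seeing the data. Of 198 named genes past 2-fold, 175, 186 and 166 stayed so with quantile, median and trend scaling, and 0 reversed. IgG and input have no repeat, so the spread of this comparison is unknown, and no detection calls were used.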

Other observations

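Transport and protein-handling messages were also lower with IgG as deposited, where 23.9% of all genes were at least 2-fold lower. The late endosomal GTPase Rab7 had 10.54 on input, 8.15 on IgG, and 10.10 and 10.32 on the Cpeb4 arrays, and Rab9 had 8.12, 5.57, 8.28 and 8.17, so that IgG alone was low. Of 49 Rab genes past the filter 19 were at least 2-fold lower and 6 at least 2-fold higher, among them the epithelial Rab25 (4.13 on input and 5.99 on IgG). Chaperonin and heat shock genes were 2-fold lower in 31 of 67 cases and 2-fold higher in 2, with the chaperonin subunit Cct8 at 9.09 on input and 6.81 on IgG. Of 33 aminoacyl-tRNA synthetases 17 were 2-fold lower and 0 higher, led by the mitochondrial Iars2 (8.03 and 5.58). Among autophagy genes 12 of 29 were 2-fold lower and 0 higher, and the initiating kinase Ulk1 was the highest (9.13 and 9.91). The iron list had 5 of 14 genes 2-fold lower, including the scaffold Iscu (9.77 and 7.74) and Ireb2, an iron-regulatory protein (7.54 and 5.58), and 1 higher. Under quantile scaling the 2-fold lower counts in these lists were 10, 12, 5, 7 and 5, against 1936 of all 13911 genes. Once the level trend was subtracted, the list medians were -0.19, -0.30, -0.34, -0.19 and -0.06 in the same order, so much of these differences went with level.

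Messages of RNA handling were lower as deposited, but their medians lay near 0 under quantile or level scaling; with array medians subtracted they stayed below the -0.51 of all genes. Over all genes 23.9% were 2-fold lower and 7.93% 2-fold higher as deposited. Of 29 deadenylation and cytoplasmic polyadenylation genes 10 (34.5%) were 2-fold lower and 0 higher. Their median of -0.77 becomes 0.01 once the level trend is subtracted and -1.13 once array medians are. Papolg, a poly(A) polymerase, had 7.59 on input and 4.81 on IgG. Of 25 nuclear pore and export genes 10 were 2-fold lower and 0 higher, with Nup98 at 9.33 and 6.86, and the median went from -0.85 to 0.06 and to -1.21 with the same steps. Ubiquitin-conjugating enzymes had a median of -0.69 that becomes 0.06 under quantile scaling, with 11 of 31 genes 2-fold lower. Immediate early genes had 3 of 25 on either side of 2-fold, with Dusp2 (4.79 and 6.17) the highest and Dusp1 (8.90 and 7.32) the lowest. Their median of 0.27 becomes -0.09 once array medians are subtracted.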
